A study of Mus musculus with 8 samples.

Results

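Kdr, Etv2, Tek, Tie1, Flt1, Pecam1 and Esam are 7 genes of endothelial cells, the lining of blood vessels, and of the hemangioblast, the mesodermal precursor that gives rise to endothelium and to the first blood cells. They were chosen by name as rows of a table of 22558 genes, and all 7 were present in it. The samples were embryoid bodies, floating aggregates of differentiating mouse embryonic stem cells, grown from the stem cell lines R1 and R1/E. In the induced arm doxycycline switched on overexpression of Oct6, the POU domain transcription factor encoded by Pou3f1, and these cultures and control cultures were each sequenced on days 2, 4 and 6, which gave 6 RNA-seq libraries, 1 per arm and day. Whether control cells shared the line or the transgene is not stated, and the treatment protocol can be read with doxycycline in both arms or in one, so effects of line or drug and of Oct6 cannot be told apart. Serum-free neural differentiation is named as the growth protocol, while the RNA library titles begin with fbs, a prefix that is not explained. A list of 7979 Oct6 peaks came from day 4 cells overexpressing Oct6, for which the sample labels name neural differentiation and the name of the list embryoid bodies, with 1 ChIP and 1 input library. With 1 library per arm and day, no difference within a day has a replicate check.

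Vascular development begins in mesoderm that expresses Kdr, the main signalling receptor for vascular endothelial growth factor (VEGF). Etv2, a transcription factor of the ETS family, is required for the hemangioblast and switches on endothelial genes, among them Kdr and the receptor genes Tek and Tie1. Flt1 encodes a second VEGF receptor, which binds the ligand tightly and signals weakly, and which also exists as a secreted decoy form. Tek is the receptor for angiopoietins and Tie1 its partner without a known angiopoietin ligand of its own. Pecam1 and Esam are immunoglobulin-type adhesion molecules of endothelial junctions. Pecam1 is also found on mouse embryonic stem cells and on platelets, so it does not mark endothelium alone here.

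The sequence that carries the binding data lies within Esam. Among peaks within 150 kb of the 7 starts it is the only one whose centre fell inside one of these genes. It is shown because of that position. The far end of Flt1 lies beyond that distance and was not searched. The peak spans chr9:37340435-37340567 (mm9, plus strand of the genome, which is the coding strand of Esam) and overlapped no annotated exon. It lies in the second intron of the longest annotated transcript, which has 7 exons. Capitals mark a match to the MORE element, on which POU proteins are known to bind as dimers.

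Esam peak: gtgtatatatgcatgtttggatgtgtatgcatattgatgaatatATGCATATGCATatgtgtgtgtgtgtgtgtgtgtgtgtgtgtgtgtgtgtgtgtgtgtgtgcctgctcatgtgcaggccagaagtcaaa

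The match began in a stretch rich in the letters atgcat and was followed by a repeat of tg pairs 48 bases long. MORE matches, searched on both strands, were present in 3.3% of 7965 peaks on assembled chromosomes and in 0.144% of 15930 flanking windows of the same width. The octamer ATGCAAAT, the classical POU site, was not in this window, and was in 4.19% of all peaks and in 1.27% of flanks. The Esam peak had an authors' score of 22.8. That placed it among the 162 peaks with that score or a higher one, 2.03% of the list, whose scores run from 7.6 to 145.6 with a median of 11.4.

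Promoters of 3 genes are shown next, because Kdr, Etv2 and Tie1 were the ones with a lower value in the induced library on each of the 3 days. The sequences are from RefSeq on build GRCm38.p6, each on the strand of its gene, from 250 bases before to 50 bases after the start. Capitals mark GGAANT or its reverse complement, a pattern built on the GGAA core recognised by ETS factors such as Etv2. GGAA outside this pattern is neither marked nor counted.

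Kdr, chr5:75978406-75978705: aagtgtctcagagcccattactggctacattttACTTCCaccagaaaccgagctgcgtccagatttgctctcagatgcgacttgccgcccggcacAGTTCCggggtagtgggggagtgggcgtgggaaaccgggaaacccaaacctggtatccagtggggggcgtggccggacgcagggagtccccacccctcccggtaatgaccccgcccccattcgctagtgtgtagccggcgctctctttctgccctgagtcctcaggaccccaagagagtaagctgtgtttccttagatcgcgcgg

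Etv2, chr7:30635803-30636102: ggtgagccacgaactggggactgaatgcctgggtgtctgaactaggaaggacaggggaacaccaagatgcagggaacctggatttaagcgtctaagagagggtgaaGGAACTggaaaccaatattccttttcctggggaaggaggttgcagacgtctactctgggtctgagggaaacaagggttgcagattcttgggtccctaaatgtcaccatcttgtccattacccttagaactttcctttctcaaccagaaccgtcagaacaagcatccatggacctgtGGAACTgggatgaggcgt

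Tie1, chr4:118489800-118490099: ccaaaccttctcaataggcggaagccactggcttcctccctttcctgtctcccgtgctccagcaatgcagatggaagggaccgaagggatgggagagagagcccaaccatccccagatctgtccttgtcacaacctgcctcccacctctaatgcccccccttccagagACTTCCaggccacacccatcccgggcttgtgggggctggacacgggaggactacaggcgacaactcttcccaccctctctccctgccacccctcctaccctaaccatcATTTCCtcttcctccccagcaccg

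Each of these promoters held 2 matches, and those of Tek and Flt1 held 1 each. Of 27025 RefSeq promoters of this length, 54.0% held at least 1, with a median of 1, so the motif is common in such windows. The octamer ATGCAAAT was in none of the promoters of these 5 genes and in 1.75% of all promoters. GATAAG, the core read by GATA factors, was in the Tek promoter and in 7.43% of all. RefSeq promoters matched 5 of the 7 genes, and Pecam1 and Esam are named only.

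Expression is given as FPKM, fragments scaled to transcript length and to the number of mapped fragments, which allows levels of different genes to be compared. Pou3f1 itself had 312, 222 and 86.8 FPKM in the induced libraries of days 2, 4 and 6, against 64.3, 10.1 and 4.76 FPKM in control cells. Steps in the lowest FPKM values gave a relative depth between 0.686 and 1.48, with control day 2 set to 1, and with annotated transcript lengths roughly 24100000 to 51700000 fragments per library. On that estimate 1 fragment is worth between 0.00297 and 0.0298 FPKM in these genes. A difference was computed on log2(FPKM + 1), which understates changes of weakly expressed genes, and a gene was counted as 2-fold higher or lower when it also had at least 1 FPKM in either library.

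In both arms the 7 genes together were most abundant at day 6. Their summed level was 11.3, 13.4 and 30.8 FPKM in the induced libraries of days 2, 4 and 6, against 15.0, 25.3 and 52.1 FPKM in control cells. All 7 reached 1 FPKM at day 6 in both arms. At days 2 and 4, 3 and 4 of them did so in induced cells, against 4 and 4 in control cells. The sum was thus lower in induced cells on each day, with the widest ratio at day 4. These are bulk libraries, in which fewer cells of a type and less RNA per cell cannot be told apart.

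**Figure D1:**
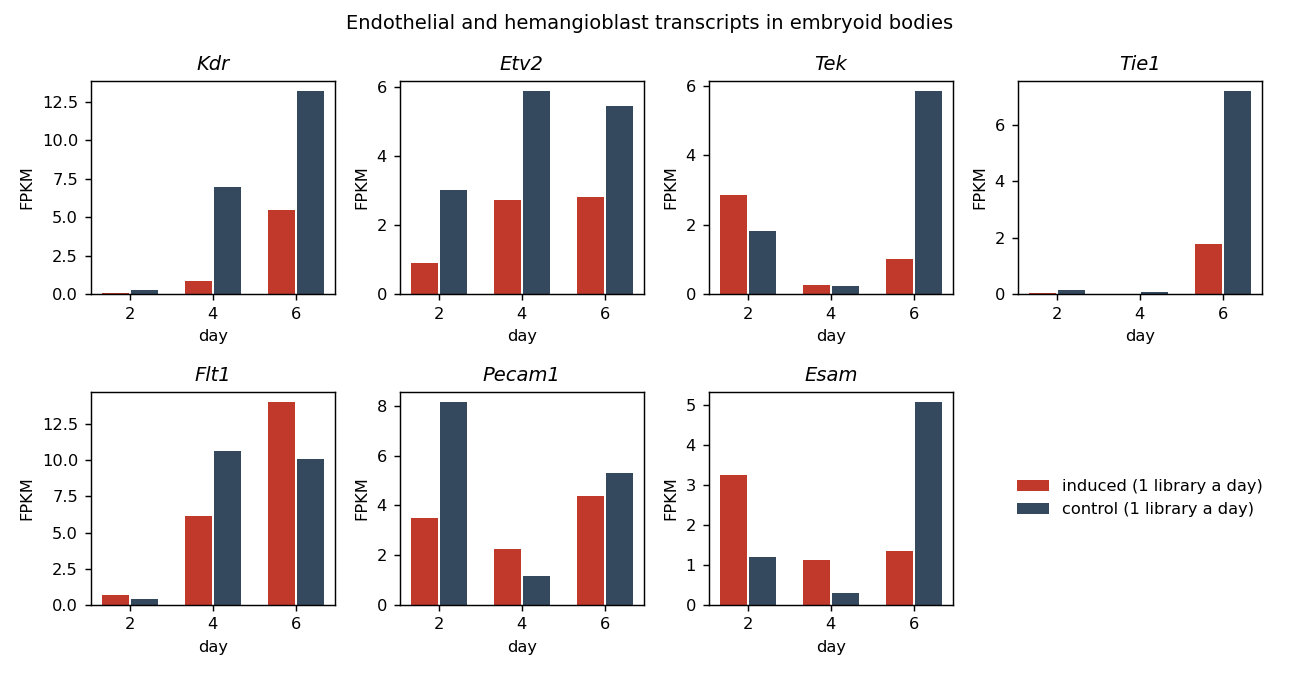
FPKM of each of the 7 genes (linear axes, 1 panel per gene) by day of culture, with 1 bar per library, induced left of control. Kdr, Etv2 and Tie1 had a shorter induced bar on each day, while Esam had a taller induced bar at days 2 and 4 and a shorter one at day 6.

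Etv2, the transcription factor at the head of the group, was lower in induced cells on every day. It had 0.888, 2.74 and 2.81 FPKM in the induced libraries of days 2, 4 and 6, against 3.03, 5.89 and 5.46 FPKM in control cells. The differences were -1.09, -0.88 and -0.76, and the highest induced value lay below the lowest control value. Within each arm the gene was lower at day 2 than later and hardly differed between days 4 and 6. At day 2 its difference was lower than that of all but 1.45% of the tested genes. Over all tested genes the median difference was 0.17, 0.10 and 0.06 on the 3 days, so the library-wide shift was in the other direction.

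Kdr had the largest single difference among the 7 genes. It had 0.0839, 0.834 and 5.44 FPKM in the induced libraries of days 2, 4 and 6, against 0.263, 6.97 and 13.2 FPKM in control cells. At day 4 the control level was 8.35 times the induced level, a difference of -2.12, and 0.268% of the tested genes had a lower value that day. At day 6 the control level was 2.42 times the induced one, a difference of -1.14. The induced level at day 6 lay below the control level at day 4. At day 2 both values were under 1 FPKM. In both arms Kdr was higher on each later day, and its highest library had 157 times the level of its lowest.

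Flt1, the second VEGF receptor, was lower in induced cells at day 4, as Kdr was, but higher at days 2 and 6, unlike Kdr. It had 0.696, 6.16 and 14.0 FPKM in the induced libraries of days 2, 4 and 6, against 0.432, 10.6 and 10.1 FPKM in control cells. Its differences were 0.24, -0.70 and 0.44, and none reached 2-fold. At day 4, 4.18% of the tested genes had a lower value. The day 2 value turned to -0.03 after quantile normalisation. The highest value of all 6 libraries was that of induced cells at day 6. The table holds 1 value per gene, so the membrane and secreted forms of Flt1 are not separated.

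The quotient of Flt1 and Kdr within a library does not depend on a scaling factor applied to that whole library. It was 8.29, 7.38 and 2.58 in the induced libraries of days 2, 4 and 6, against 1.64, 1.53 and 0.763 in control cells. It was thus higher in induced cells on each day, by 5.05, 4.83 and 3.38 times. The day 2 quotients rest on Kdr at 0.0839 FPKM in induced and 0.263 FPKM in control cells. At day 6 Flt1 exceeded Kdr in induced cells and Kdr exceeded Flt1 in control cells. Among the 21 pairs that can be formed from the 7 genes, 3 had a quotient more than 2-fold higher in induced cells on all 3 days, the others being Flt1 over Tie1 and Pecam1 over Tie1. These pairs were singled out after their values were seen, and with 3 days they carry no test. The pairs with Tie1 rest on its induced values of 0.0257 and 0.00911 FPKM at days 2 and 4. There 1 fragment is worth about 0.0093 and 0.00973 FPKM, so those quotients are uncertain.

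**Figure D2:**
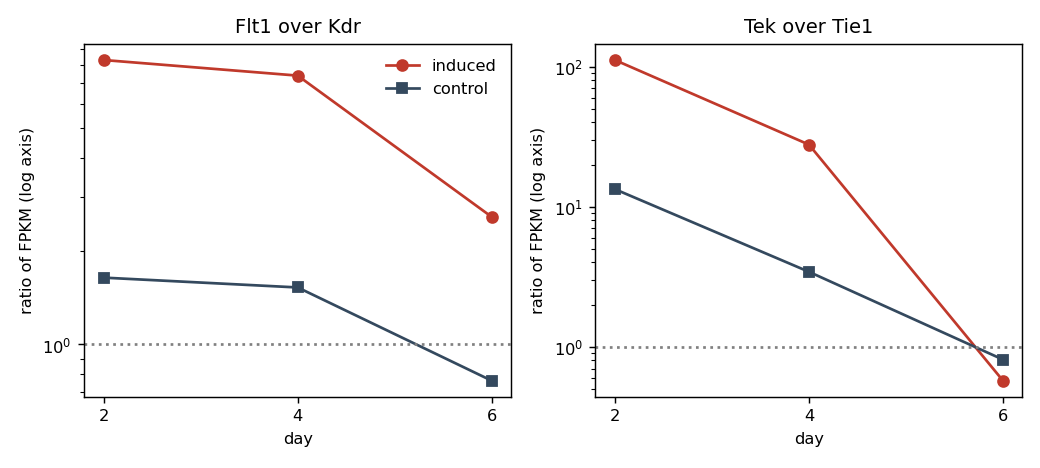
Ratio of FPKM within each library (log axis) by day, for Flt1 over Kdr (left) and Tek over Tie1 (right), with induced libraries as circles, control libraries as squares and 1 library per point. Flt1 over Kdr lay between 2.58 and 8.29 in induced and between 0.763 and 1.64 in control libraries.

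Tek and Tie1, the angiopoietin receptor and its partner, differed most at day 6. Tek had 2.86, 0.253 and 1.01 FPKM in the induced libraries of days 2, 4 and 6, against 1.81, 0.242 and 5.84 FPKM in control cells. Both arms were thus low at day 4. The control level at day 6 was 5.78 times the induced level, a difference of -1.77. At day 2 the difference was 0.46, and at day 4 it was 0.01, which became -0.01 with median ratio scaling and -0.09 with quantile normalisation. Control cells had more than their day 2 level at day 6, and induced cells had less than theirs.

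Tie1 was the gene with the widest range, taken as a ratio of FPKM. It had 0.0257, 0.00911 and 1.76 FPKM in the induced libraries of days 2, 4 and 6, against 0.136, 0.0705 and 7.20 FPKM in control cells. The induced day 4 value is near the worth of 1 fragment, estimated at 0.00973 FPKM, so that range and any fold using it are uncertain. At day 6 the control level was 4.08 times the induced level, a difference of -1.57. The Tek to Tie1 quotient was 111, 27.7 and 0.573 in induced cells, against 13.3, 3.43 and 0.811 in control cells, so that Tek was the more abundant at days 2 and 4 and Tie1 at day 6 in both arms. The induced quotients of days 2 and 4 rest on Tie1 values of 0.0257 and 0.00911 FPKM, where 1 fragment is worth about 0.0093 and 0.00973 FPKM.

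Of the adhesion molecules, Esam was higher in induced cells at days 2 and 4 and lower at day 6. It had 3.26, 1.13 and 1.35 FPKM in the induced libraries of days 2, 4 and 6, against 1.19, 0.288 and 5.08 FPKM in control cells. The differences were 0.96, 0.72 and -1.37. Linear levels were 2.75 and 3.90 times as high in induced cells at days 2 and 4, and control cells had 3.76 times the induced level at day 6. With a pseudocount of 0.1 in place of 1, the day 2 and day 4 differences were 1.39 and 1.66. Whether the intronic Oct6 peak printed above bears on these levels was not tested.

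Pecam1 had its highest value at day 2 in control cells. It had 3.49, 2.26 and 4.38 FPKM in the induced libraries of days 2, 4 and 6, against 8.16, 1.16 and 5.31 FPKM in control cells. The differences were -1.03, 0.60 and -0.23. Beside it, the summed level of 6 markers of pluripotent stem cells, among them Pou5f1, was 903, 1117 and 373 FPKM in induced cells, against 1912, 1331 and 294 FPKM in control cells. Both Pecam1 and that sum were highest in control cells at day 2, as were 3 of the 6 markers, Pou5f1, Sox2 and Utf1, while Nanog, Zfp42 and Tdgf1 were highest in other libraries. The part of stem cells in the Pecam1 values was not tested.

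**Figure D3:**
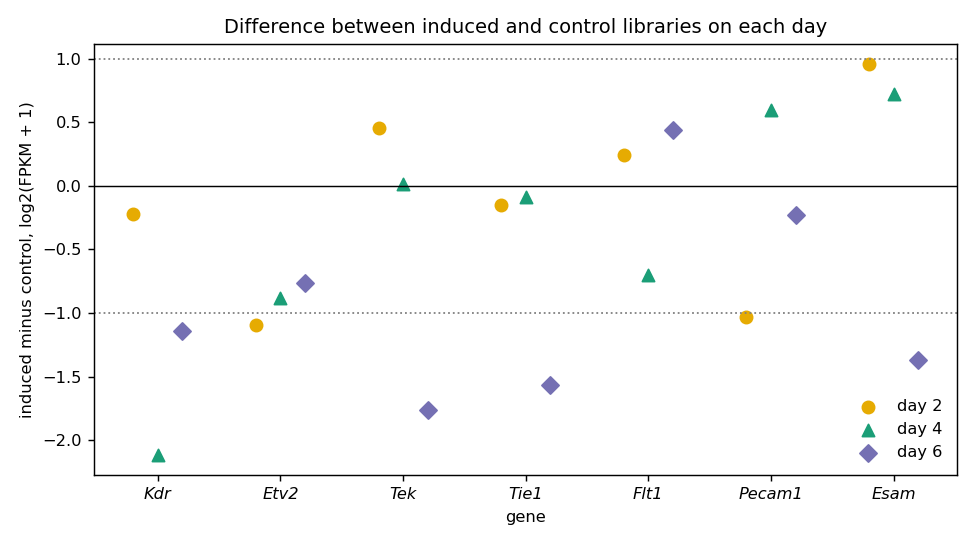
Difference of log2(FPKM + 1), induced minus control, for each gene and day, with 1 pair of libraries per point and dotted lines at a 2-fold difference. No point lies above the upper line, and Kdr at day 4, at -2.12, is the lowest.

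Set against all genes, 2 of the 4 genes with at least 1 FPKM were 2-fold lower at day 2 (Etv2 and Pecam1), 1 of 5 at day 4 (Kdr), and 4 of 7 at day 6 (Kdr, Tek, Tie1 and Esam). Of all tested genes 1.83%, 2.11% and 2.1% were 2-fold lower on these days. None of the 7 was 2-fold higher on any day, against 9.72%, 6.09% and 3.37% of all tested genes. For Esam this rests on the pseudocount of 1, since with 0.1 it was 2-fold higher at days 2 and 4. Kdr, Etv2 and Tie1 had a value below 0 on all 3 days, as did 13.1% of 13661 genes, and no gene of the 7 had one above 0 on all 3, against 34.6%. The median difference over the 7 was -0.15, -0.09 and -1.14. At day 6 the value was below 0 for 6 of the 7, Flt1 being the exception, while the median over all tested genes was 0.06. The share of all tested genes below 0 on that day was not counted.

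A difference common to the 3 days was tested across 13661 genes with limma, with a block for day, Benjamini-Hochberg adjustment over all genes and 2 degrees of freedom left. What is tested there is the spread of the difference between days, not between repeated cultures. None of the 7 genes passed at an adjusted p of 0.05, as did 0.0146% of all genes in the higher and 0.00732% in the lower direction. At an unadjusted p under 0.05 the count was 2 of the 7, Etv2 and Kdr, both lower, against 4.72% of all genes in that direction and 16.3% in the other. Etv2 had a mean log2 level of 1.58 in induced and 2.50 in control cells, a coefficient of -0.91 with a standard error of 0.16 and a limma adjusted p of 0.121, lower in 3 of 3 days. Kdr had 1.23 in induced and 2.39 in control cells, a coefficient of -1.16 with a standard error of 0.38 and a limma adjusted p of 0.193, also lower in 3 of 3 days.

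The other 5 coefficients were smaller than 2 of their standard errors. Tie1 had -0.60 ± 0.35 (SE) and was lower on 3 days, Tek had -0.43 ± 0.46 and was lower on 1 day, and Pecam1 had -0.22 ± 0.33 and was lower on 2 days. Flt1 had -0.00498 ± 0.26 and Esam had 0.10 ± 0.49. For Tek, Flt1, Pecam1 and Esam the mean over days joins differences of opposite sign. A second limma fit, added after the values had been seen, asked whether the difference changes with numeric day. It called none of 13661 genes at an adjusted p of 0.05, that is 0.0%, and 13.1% at an unadjusted p under 0.05. Esam had a slope of -0.58 per day (SE 0.16, unadjusted p 0.0135, adjusted p 0.263) and Tek one of -0.56 (SE 0.13, unadjusted p 0.00887, adjusted p 0.238) in this limma fit.

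Within control cells different genes of the 7 were higher over each step. From day 2 to day 4, Kdr and Flt1 were at least 2-fold higher, by 2.66 and 3.02 on the log2 scale, and Tek and Pecam1 at least 2-fold lower, while 9.63% of tested genes were higher and 4.65% lower. Esam had -0.76 over this step, which was -1.73 with a pseudocount of 0.1 and -1.03 after quantile normalisation. From day 4 to day 6, Tek, Tie1, Pecam1 and Esam were at least 2-fold higher, by 2.46, 2.94, 1.55 and 2.24, against 6.15% of all tested genes, and none was 2-fold lower, against 2.97%. Etv2 and Flt1 hardly differed over that step. In induced cells Flt1 was 2-fold higher from day 2 to day 4, by 2.08, with 2.73% of all tested genes, and Tek and Esam were 2-fold lower, with 2.36%. From day 4 to day 6, Kdr, Tie1 and Flt1 were 2-fold higher there, by 1.81, 1.45 and 1.07, with 2.98% of all tested genes, and none was 2-fold lower, against 2.1%. Over that step Tek differed by 0.68, Pecam1 by 0.72 and Esam by 0.15 in induced cells. With a pseudocount of 0.1 the value of Tek was 1.66. Over the whole course, from day 2 to day 6, Kdr, Tek, Tie1, Flt1 and Esam were 2-fold higher in control cells, with 17.2% of all tested genes, and Kdr, Etv2, Tie1 and Flt1 in induced cells, with 7.22%. None of the 7 was 2-fold lower over that span in either arm, against 5.35% of tested genes in induced and 6.73% in control cells. In induced cells this depends on the processing. Tek had -0.94 there, which was -1.41 with a pseudocount of 0.1 and -1.01 after quantile normalisation. Esam had -0.86 there, which was -1.21 with that pseudocount. Over that span Etv2 in induced cells had 1.01, which was 0.95 with median ratio scaling and 0.89 with quantile normalisation, and Tek in control cells had 1.28, which was 0.82 with quantile normalisation.

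The order of abundance also differed between libraries. At day 6 control cells had Kdr first, then Flt1, Tie1, Tek, Etv2, Pecam1 and Esam, the last 4 within 5.08 to 5.84 FPKM. Induced cells at day 6 had Flt1 first, then Kdr, Pecam1, Etv2, Tie1, Esam and Tek, the last 3 within 1.01 to 1.76 FPKM. Whether neighbours in these orders differ beyond a spread cannot be said with 1 library each. Pecam1 was the most abundant of the 7 at day 2 in both arms, and Flt1 at day 4 in both arms.

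Other genes of vessel formation were followed in 5 lists with 52 genes in all. At day 6, 11 of the 49 with at least 1 FPKM were 2-fold lower and 1 was 2-fold higher, which is 22.4% and 2.04%, beside 2.1% and 3.37% of all tested genes. At day 2, 3 of 32 were lower and 6 higher, which is 9.38% and 18.8%, beside 1.83% and 9.72% of all tested genes. At day 4, 3 of 32 were lower and 3 higher, which is 9.38% each, beside 2.11% and 6.09%. Medians over the 52 genes were 0.03, -0.04 and -0.47. In limma's fit over the 3 days 0 of the 50 tested passed at an adjusted p of 0.05, and 7 were lower and 2 higher at an unadjusted p under 0.05, beside 4.72% and 16.3% of all genes.

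Surface and junction genes made up most of the day 6 count, with 7 of 12 expressed members 2-fold lower. Cdh5, the cadherin of endothelial junctions, had 1.51 FPKM in induced and 6.55 FPKM in control cells at day 6. Emcn, a sialomucin of venous and capillary endothelium, had 0.227 against 4.16 FPKM, and Plvap, a protein of endothelial fenestrae, had 0.624 against 7.71 FPKM. Cd34, a sialomucin of blood and vessel progenitors, had 16.9, 2.45 and 1.11 FPKM in the induced libraries of days 2, 4 and 6, against 3.78, 0.819 and 9.17 FPKM in control cells. Like Esam, it was higher in the induced library at days 2 and 4 and lower at day 6. Jam2, a junctional adhesion molecule, was higher in induced cells, with 6.81 against 0.948 FPKM at day 4 and 8.31 against 1.04 FPKM at day 6.

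Of 14 transcription factors of endothelium and hemangioblast, 13 had a lower value in induced cells at day 6. The median difference over all tested genes was 0.06 that day, and the share of them below 0 was not counted. The 13 differences ran from -0.04 for Elk3 to -2.09 for Sox18. Only Sox18, with 0.760 against 6.47 FPKM, was 2-fold lower that day on the log2(FPKM + 1) scale, beside 2.1% of all tested genes. Tal1, which is required for blood formation from the hemangioblast, had 0.257, 0.211 and 5.16 FPKM in induced cells, against 1.76, 0.782 and 7.34 FPKM in control cells. Hhex, a homeobox factor of endothelium and endoderm, had 3.67 against 9.99 FPKM at day 4. Nr2f2, a factor of venous identity, had 1.62 against 0.0949 FPKM at day 4 and 2.35 against 5.31 FPKM at day 6. At day 6 the list median was -0.46, and that of the surface and junction genes was -1.04.

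Ligands and further receptors of VEGF shifted between days. At day 2, 4 of 7 expressed members were 2-fold higher in induced cells, beside 9.72% of all tested genes, and none was lower. At day 6, 2 of 8 were lower, beside 2.1% of all tested genes, and none was higher. Vegfc, a ligand of lymphatic vessels, had 11.2, 7.16 and 6.26 FPKM in induced cells, against 4.05, 1.29 and 6.37 FPKM in control cells. Nrp1, a co-receptor for VEGF and semaphorins, had 5.03 against 0.229 FPKM at day 2. Flt4, the receptor for Vegfc, had 1.21, 0.669 and 0.770 FPKM in induced cells, against 1.43, 2.56 and 3.48 FPKM in control cells. Pgf, a ligand of Flt1, had a difference of -1.67 at day 6.

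In the angiopoietin and TGF-beta family list 1 of 4 expressed members was 2-fold higher at day 2, beside 9.72% of all tested genes. No member was counted as 2-fold higher or lower at day 4 or day 6. On those 2 days 6.09% and 3.37% of all tested genes were higher, and 2.11% and 2.1% lower. The count uses log2(FPKM + 1), which understates changes at these low levels. The member at day 2 was Bmper, a BMP-binding regulator, with 1.46 against 0.152 FPKM. Angpt2, an angiopoietin, had 0.631 against 1.64 FPKM at day 6, a difference of -0.69. Acvrl1, an endothelial type I receptor, had 0.897 against 2.47 FPKM at day 6, a difference of -0.87. Angptl4 had 4.55 against 8.11 FPKM at day 2. In the Notch and ephrin list only Dll4, the Notch ligand of tip cells and arteries, was 2-fold lower on the log2(FPKM + 1) scale, with 0.442 against 2.24 FPKM at day 6. That was 1 of 8 expressed members, beside 2.1% of all tested genes. Hey1 and Hey2, Notch target genes of arteries, had 12.6 and 3.52 FPKM in induced cells at day 6, against 19.9 and 6.68 FPKM in control cells. Ephb4, an ephrin receptor of veins, had 15.9 against 8.18 FPKM at day 2.

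From the surface and junction list, 5 defining markers of endothelium (Cdh5, Cldn5, Emcn, Icam2 and Robo4) were also summed. These 5 are already part of the list counts above and are not separate from them. Their total was 1.68, 2.04 and 4.52 FPKM in the induced libraries of days 2, 4 and 6, against 3.23, 2.37 and 18.5 FPKM in control cells. At day 2, 2 of the 5 were listed at 0 in induced cells and none in control cells, and at day 4, 1 was in each arm. In neither arm did Cdh5, Emcn or Icam2 reach 1 FPKM before day 6. Cldn5, a claudin of endothelial tight junctions that some epithelia also express, had 0.935 and 1.57 FPKM in the induced libraries of days 2 and 4, against 1.19 and 1.94 FPKM in control cells. Robo4, an endothelial guidance receptor, had 0.676 and 0.296 FPKM in induced cells on those days, against 1.86 and 0.264 FPKM in control cells. At day 6 Robo4 had 0.171 FPKM in induced and 0.442 FPKM in control cells. It was thus below its day 2 level in both arms, unlike the sum. Before day 6, 3 of the 5 markers were thus near 0, while Cldn5 and Robo4 were measured at levels like those of several of the 7 genes.

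Markers of other cells differed beside the 7 genes. Of all tested genes 2.11% were 2-fold lower at day 4 and 2.1% at day 6. The sum of 7 erythroid genes was 160 FPKM in induced and 1557 FPKM in control cells at day 6, and 6 of the 7 were 2-fold lower. The sum of 6 cardiac genes was 9.52 in induced and 191 FPKM in control cells at day 6. All 5 of them with at least 1 FPKM were 2-fold lower. The sum of 6 visceral endoderm genes was 6.60 FPKM in induced and 122 FPKM in control cells at day 4. At day 6 it was 13.3 and 168 FPKM, and 6 of 6 were 2-fold lower on both days. For 6 genes of mural and smooth muscle cells the day 6 sums were 68.4 and 218 FPKM, with 2 of 4 expressed members 2-fold lower. The nascent mesoderm sum was 237 FPKM in induced and 365 FPKM in control cells at day 4, when Mesp1 and Pdgfra were 2-fold lower, and 91.8 and 95.0 FPKM at day 6. The sum of 6 other blood cell genes was 7.21 and 7.79 FPKM at day 6, with 1 at 0 in each arm. Only 3 of these 6 had at least 1 FPKM that day, and none of the 3 had a 2-fold difference. Lower values at day 6 were therefore not limited to endothelial genes, and the part of any other cell type in the 7 genes' values was not tested.

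**Figure D4:**
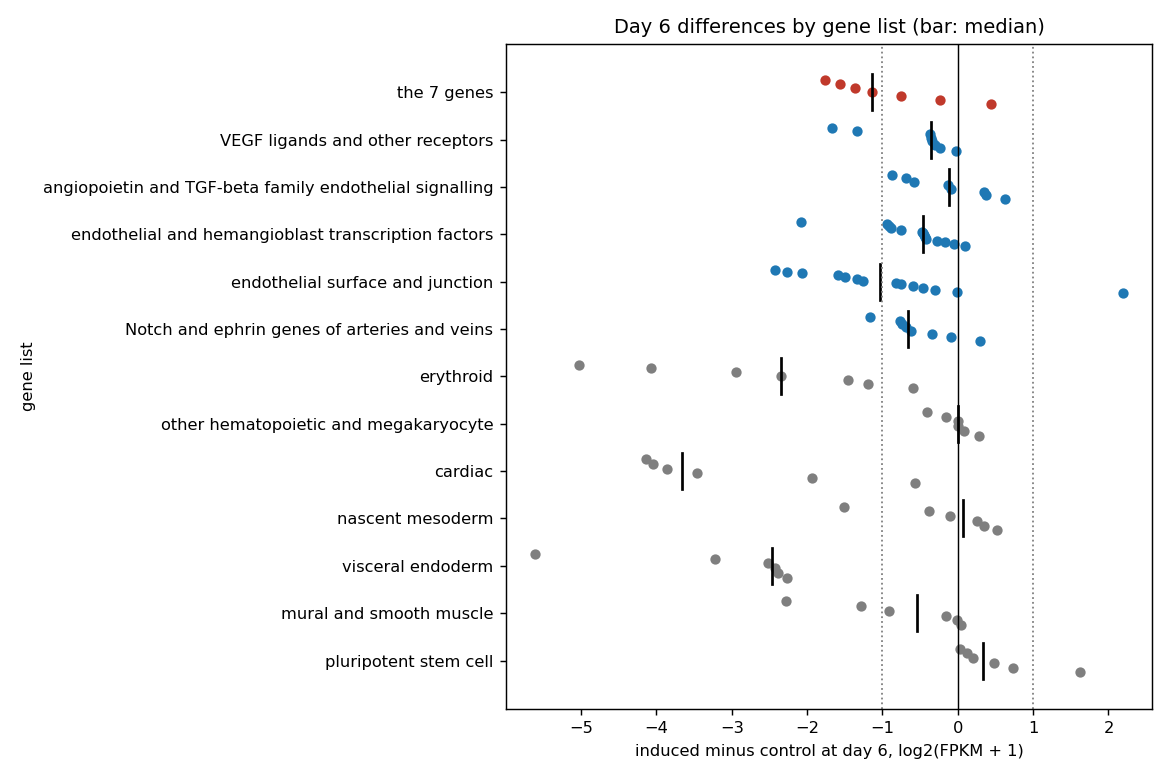
Difference of log2(FPKM + 1) at day 6, induced minus control, for each gene of the 7 (top row, red), of the 5 vessel lists (blue) and of 7 lists of markers of other cells (grey), with 1 point per gene, a bar at the median and dotted lines at a 2-fold difference. Medians of the 7 genes and of the surface and junction list lie at -1.14 and -1.04, those of the erythroid, cardiac and visceral endoderm lists further to the left.

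Genes of most alike course were sought among 5537 genes by the root mean square difference of the centred log2 values over the 6 libraries. The smallest difference of all was that of Tie1 and Cdh5, at 0.095, followed for Tie1 by the globin Beta-s at 0.0981. Kdr was nearest to Cited1 at 0.187, Gprc5c at 0.262 and Gata4 at 0.264. Flt1 was nearest to Tmem176a at 0.124, Klhl6 at 0.194 and Rspo3 at 0.257, and Etv2 to Esrp1 at 0.18, Dusp2 at 0.194 and Lad1 at 0.196. Esam was nearest to Itgb3 at 0.202, Fzd4 at 0.247 and Fbn1 at 0.26, and Pecam1 to Ddc at 0.261, Gli1 at 0.265 and Rara at 0.305. Tek was nearest to Fzd4 at 0.325, and then to Esam at 0.353, the one case in which a gene of the 7 was among the closest to another. The third place for Tek, at 0.398, went to Mir704, a short RNA that FPKM measures poorly.

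The share of the 7 genes with a nearby Oct6 peak was close to that of all genes. Only Esam had a peak centre within 10 kb of its annotated start, at 4838 bases downstream on chromosome 9, beside 13.1% of 20204 protein-coding genes with such a peak. Esam lies at 37335663 to 37345904 on the plus strand in mm9. For the other 6 genes the nearest peak was 28576 bases or more from the outermost annotated start. That of Pecam1 (chromosome 11, 106515531 to 106611942, minus strand) lay 28576 bases from that start and 333 bases from the start of Polg2. Tie1 (chromosome 4, 118143796 to 118162666, minus strand) had a peak at 80722 bases, which is 2 bases from the start of Med8.

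For the remaining genes the distances were larger. Etv2 (chromosome 7, 31418635 to 31421308, minus strand) had its nearest peak at 93302 bases, 57 bases from the start of Tmem147. Tek (chromosome 4, 94405980 to 94541667, plus strand) had a peak at 136088 bases, 43 bases from the start of Plaa, and Flt1 (chromosome 5, 148373180 to 148537587, minus strand) had one at 146154 bases within Pomp. Kdr (chromosome 5, 76328852 to 76374483, minus strand) had none within 150 kb, its nearest being at 276679 bases between genes. A second peak lay 97229 bases from the Esam start, within Siae. Of these 7 further peaks none held a MORE match or the octamer, and their scores ran from 10.1 to 16.5.

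**Figure D5:**
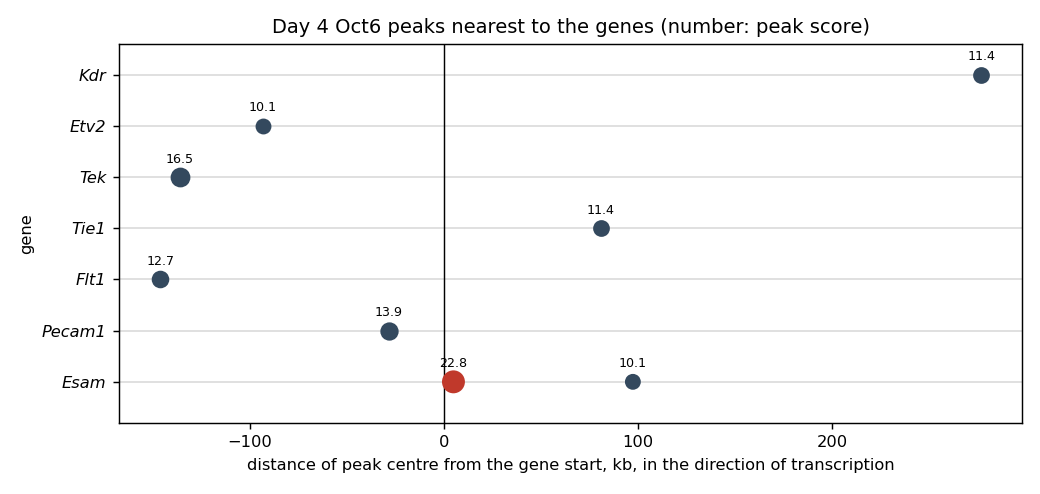
Distance in kb from each gene's start, in the direction of transcription, to the centres of the Oct6 peaks within 150 kb, or to the nearest peak for Kdr, which has none in that range. Point area follows the authors' peak score, printed above each point, and the red point is the Esam peak, at 22.8 the highest score shown and the one peak shown that lies inside a gene of the 7.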

How the data were processed

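The submitters' processing notes name build mm9 and, in no stated order, HOMER, Cuffdiff, Cufflinks 1.3.0 and TopHat 1.4.1. The FPKM table was made by the authors, with 1 column per library. Strandedness and the treatment of multi-mapping reads are not given in the sources used here. The peak list gives 1 score per 133-base peak, as deposited by the authors, and the scores were used only to rank peaks. No peak ended past a chromosome of NCBIM37, the assembly of mm9, whose GENCODE annotation gave starts, exons and, for the rough depth, transcript lengths. The 14 peaks on contigs were left out of motif counts.

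Differences were taken on log2(FPKM + 1), with no test within a day. limma 3.58.1 (R 4.3.3; trend, day as block) was run on genes with 1 FPKM in at least 1 library and tested on simulated data. Python 3.11.15, numpy 2.4.6 and pandas 2.3.3 did the rest. The outer edge of each flanking window lay 500 bases from the peak. Named genes were the 7, up to 4 per list with the largest difference, the 3 of most alike course, and members of small counts, named after their values were seen. One gene of most alike course is not reported here. Members and lists were chosen with earlier results of these data known. Alternatives were another pseudocount, other filters, median ratio scaling, quantile normalisation, no day block, no trend, each day left out, and other peak distances and scores.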

Additional observations from a re-analysis of the deposited data

Results flagged for a closer look

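Differences in opposite directions on 2 days, both over 0.5 in size, were found for 2 of the 7 genes. The share of all genes with such differences was not counted, so how unusual this is cannot be said. Esam had 0.963 at day 2 and -1.37 at day 6 (induced minus control, log2(FPKM + 1)). The limma fit of a change with day, added after the values were seen, gave it an adjusted p of 0.263. Pecam1 had 0.595 at day 4 and -1.03 at day 2, and the same limma fit gave it an adjusted p of 0.683. A contrast of those 2 days alone was not tested, as each day has 1 pair of libraries.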

How the results depend on the processing

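Over all genes limma called 3, against 1 with a pseudocount of 0.1, 7 after quantile normalisation, and 0 without the filter or without any 1 day. No gene of the 7 passed limma at an adjusted p of 0.05 under any of the 9 alternatives run, with adjusted p between 0.112 and 0.624 for Etv2 and between 0.161 and 0.807 for Kdr. Leaving out a day gave coefficients of -0.99 to -0.82 for Etv2 and -1.63 to -0.68 for Kdr. Coefficients of Tek, Flt1, Pecam1 and Esam, each smaller than its standard error, changed sign. Each is a mean over the days kept, and over the 3 days these genes had differences of both signs. Flt1 became 0.0926 with a pseudocount of 0.1 and 0.34 without day 4. Esam became -0.12 after quantile normalisation, -0.32 without day 2 and -0.20 without day 4. Pecam1 became 0.18 without day 2, and Tek 0.24 without day 6. Counts of 2-fold lower genes moved to 1 at day 2 with a minimum of 5 FPKM (fewer genes tested) and to 2 at day 4 with a pseudocount of 0.1 or quantile normalisation. With the pseudocount of 0.1, 1 gene was 2-fold higher at day 2 and 1 at day 4. At day 6 the counts were 4 lower and 0 higher under each alternative run. Genes with a peak numbered 2 within 50 kb and 4 within 100 kb, beside 32.1% and 48.9% of protein-coding genes. The fit sets the arms against each other within each day, and without the day block the limma adjusted p was 0.573 for Etv2 and 0.807 for Kdr. Depth limits Tie1 at days 2 and 4 most.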
